A study of Mus musculus with 29 samples.

Results

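Matrix metalloproteinases and their inhibitors were followed through every cell type of brain and blood after experimental stroke. The 8 genes, chosen by name, were 5 metalloproteinases (Mmp8, Mmp9, Mmp12, Mmp14 and Mmp19) and 3 tissue inhibitors (Timp1, Timp2 and Timp3), of 27827 genes found in any table. All 8 were in the tables of young and of aged brain, and 5 of them were in the blood tables. Mmp12, Mmp14 and Timp1 were not analysed here in blood. The tables held 15 Mmp and 4 Timp genes in all.

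Single cells were profiled with Drop-seq, a droplet method that counts transcript molecules from their ends, in C57BL/6J mice whose middle cerebral artery was blocked for a time (stroke) or that had sham surgery. The young mice were males aged 8 to 10 weeks, with brain libraries in 3 groups of 4 (day 2 after sham, day 2 after stroke, day 14 after stroke) and 4, 4 and 3 blood libraries of those groups. The aged mice, 17 to 20 months old, had brain libraries only: 1 male and 1 female pool for sham (day 2), 1 male and 2 female pools for stroke (day 2), and a single female pool 14 days after stroke. Each brain library pooled 4 to 5 hemispheres, sorted into endothelial cells, microglia and cells with high CD45, and each blood library pooled 2 mice, so the spread between libraries is a spread between pools. There was no sham group at day 14: both stroke times were set against the same sham libraries, and stroke and the longer time since surgery cannot be told apart at day 14.

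Matrix metalloproteinases are zinc-dependent enzymes that cut collagens, laminins, elastin and many signalling proteins outside cells. They are made as inactive proenzymes, are switched on by removal of a propeptide, and are held in check by the tissue inhibitors of metalloproteinases, which plug the active site. In the ischaemic brain the family is best known for loosening the basement membrane around vessels while leukocytes enter, and for later removal and rebuilding of matrix.

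Levels are given as CPM: counts were summed over the cells of 1 type in 1 library, and a gene's sum was divided by the total and scaled in the usual way. Types are the authors' deposited codes. Marker genes were highest in their own type for microglia, endothelial cells, brain granulocytes, blood neutrophils, blood monocytes and monocyte-derived brain cells. The monocyte or macrophage list led the dendritic code (DC) in brain, and in 5 of 6 groups it led the border-associated macrophage code, so both names are used only as the authors' codes. Libraries held 1143 to 6328 cells and 819438 to 5855047 counts, and the median cell of a library had 321 to 1363 counts. Cell barcodes were shared by 231 of 406 library pairs, at most 7 barcodes (0.147%). In the library of young stroke day 2 replicate 3, the 58 cells coded as microglia went against that code: the summed microglial markers were at 817 CPM with 2 of 6 at 0, against 10392 to 12466 CPM in the other stroke day 2 libraries, and the monocyte or macrophage markers were at 4207 CPM against 545 to 1291. The Mmp12, Mmp14 and Timp2 values of microglia at stroke day 2 include it unless stated, and are given without it too. A change in CPM of a type can come from more cells that use the gene or from more RNA per cell, and these cannot be told apart here.

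The genes differed in the types that held them. Mmp8 and Mmp9 were highest in neutrophils, although in 1 brain library of stroke day 14 Mmp8 was lower in granulocytes than in monocyte-derived cells. Timp3 was highest in endothelial and mural cells, and Timp2 in microglia. Mmp12 in young brain had its highest group mean in microglia at stroke day 2. Its highest young library, at 125.5 CPM, was of the dendritic code in sham. Mmp14, Mmp19 and Timp1 were highest in monocyte-derived, border-associated or dendritic-coded cells of the injured brain. Timp1 was also high in endothelial cells at stroke day 2.

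Over all groups of both ages, the order of the types was as follows. For Mmp8 in brain, granulocytes (1808 CPM, mean over 18 libraries) stood above monocyte-derived cells (130 CPM), although their ranges overlapped across groups, and all other types had means under 5 CPM. In blood, neutrophils (2433 CPM, 11 libraries) stood above monocytes (330 CPM) without overlap, and a small code named pre came next (116 CPM, 3 libraries). Mmp9 had 1357 CPM in blood neutrophils and 989 CPM in brain granulocytes, and next to them only the eosinophil and basophil code had a mean above 100 CPM (242 ± 290 CPM, SD, n = 7, from 23 counts). Types found in fewer than 5 libraries are left out of the orders that follow. Mmp14 ran from monocyte-derived cells (90.9 CPM) to border-associated macrophages (63.6 CPM) and the dendritic code (35.5 CPM), neighbours whose ranges overlapped. Timp1 had 43.9, 38.3 and 29.4 CPM in monocyte-derived cells, the dendritic code and endothelial cells, which overlapped likewise. Timp2 was led by microglia (605 CPM, 18 libraries), before border-associated macrophages (295 CPM) and granulocytes (138 CPM), again with overlap. Mmp19 was led in brain by monocyte-derived cells (57.0 CPM). In blood its highest value of any library, 626 CPM, came from 6 counts in 21 cells of the code UC in 1 library.

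**Figure D1:**
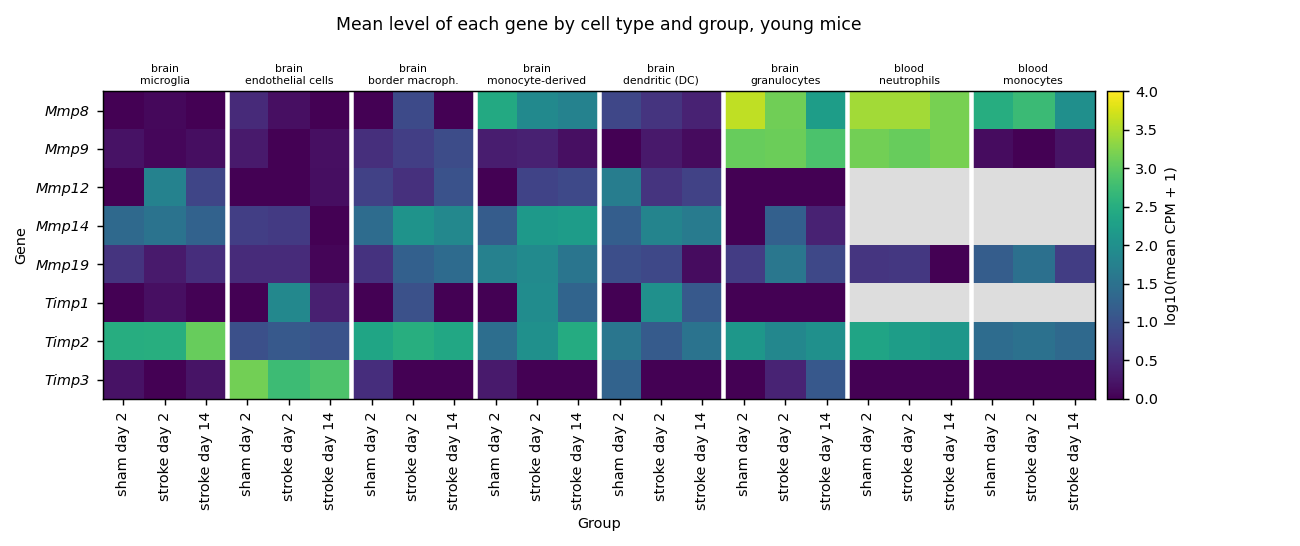
Mean level of the 8 genes (rows) in 8 cell types of young mice (blocks of 3 columns: sham day 2, stroke day 2, stroke day 14), as log10 of mean CPM + 1, over 3 to 4 libraries per column. Grey cells are genes not analysed here in blood. Mmp8 and Mmp9 fill the granulocyte and neutrophil blocks, Timp3 the endothelial block, and Timp2 is brightest in microglia at stroke day 14.

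Mmp8, neutrophil collagenase, cuts fibrillar collagen and is stored in neutrophil granules. The gene lies on chromosome 9 at 7558456 to 7568485 of GRCm38, on the plus strand, in a cluster of 9 Mmp genes, and its start is 214075 bases from that of Mmp12. In blood neutrophils its level was 3756, 3164, 3263 and 1056 CPM in sham, 2123, 3410, 2619 and 2887 CPM at stroke day 2, and 1168, 2282 and 1035 CPM at stroke day 14. The groups overlapped, and the log2 difference of day 14 from sham, −1.24 ± 0.40 (SE), had an adjusted p of 0.0834. In brain granulocytes, the type led by neutrophil markers, Mmp8 stood at 2709, 4926, 3312 and 5442 CPM in sham and at 575, 1009, 1817 and 2013 CPM at stroke day 2. By stroke day 14 it stood at 47.4, 208, 326 and 77.4 CPM. The 3 groups did not overlap in brain: every day 2 library was below every sham library, and every day 14 library below every day 2 library. In log2 terms Mmp8 fell by 1.74 ± 0.44 at day 2 (adjusted p = 0.0185), by 4.83 ± 0.54 at day 14 (adjusted p = 4.52e-06) and by 3.10 ± 0.53 from day 2 to day 14 (adjusted p = 0.0021). The call at day 2 was lost when any of 4 libraries was left out (sham replicate 2 or 4, stroke day 2 replicate 1 or 2; highest adjusted p 0.0695) and without the filter on low counts (0.108), and the other 2 calls were kept. The share of granulocytes with an expected count of Mmp8 that rounds to 1 or more was 62.3% in sham, 25.6% at day 2 and 3.88% at day 14. Median depths were 433, 442 and 323 counts per cell. The sum of the 6 neutrophil markers in these cells was 222171 to 290444 CPM in sham, 111716 to 204005 CPM at day 2 and 54027 to 70585 CPM at day 14, and among them Ly6g went from a mean of 795 CPM to 236 CPM and to 0 in all 4 day 14 libraries. The part of these markers in the fall of Mmp8 was not tested.

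Mmp9, gelatinase B, cuts denatured collagen and collagen IV of basement membranes and is the family member most often tied to leakage of brain vessels after stroke. Its gene is on chromosome 2 at 164940780 to 164955850, plus strand. Its level in blood neutrophils was 1445, 1238, 1501 and 1473 CPM in sham, 968, 1070, 1159 and 1482 CPM at stroke day 2, and 1561, 1428 and 1603 CPM at stroke day 14. In brain granulocytes it was 2022, 903, 1078 and 621 CPM in sham, 1308, 1237, 1453 and 1101 CPM at day 2, and 1044, 624, 927 and 386 CPM at day 14. These groups overlapped in both tissues, apart from day 14 against day 2 in the brain, where the highest day 14 library (1044 CPM) was just below the lowest day 2 library (1101 CPM). The log2 difference from sham in brain was −0.06 ± 0.39 at day 2 (adjusted p = 0.95), with a sign that turned under 5 alternatives, and −1.01 ± 0.40 at day 14 (adjusted p = 0.0756).

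In young mice the levels of Mmp8 and Mmp9 in brain granulocytes moved apart. The ratio of Mmp8 to Mmp9 counts, used only to compare types and times, was 3.76 in sham, 1.37 at stroke day 2 and 0.282 at stroke day 14 there, while in blood neutrophils it was 2.36, 2.16 and 1.11. By library the brain ratio ran from 1.34 to 8.77 in sham, from 0.44 to 1.83 at day 2 and from 0.0454 to 0.352 at day 14, so sham and day 2 overlapped and day 14 lay below both. The day 14 ratio rests on 37 counts of Mmp8, mostly from replicate 3, and was 0.14 without it. Aged granulocytes did not show this order. Their ratio was 2.31 in sham (2.07 and 2.83 in the 2 libraries), 2.70 at stroke day 2 (0.811 to 4.82 in 3 libraries, overlapping sham) and 1.33 in the single day 14 library, from 4 counts of Mmp8 and 3 of Mmp9. Mmp8 there was at 1552 and 2691 CPM in sham, at 2839, 1252 and 1405 CPM at day 2 and at 345 CPM at day 14. An expected count of it that rounds to 1 or more was found in 45.5%, 39.6% and 14.3% of cells. The difference between the ages was not tested in granulocytes. Of the 2 genes tested in brain granulocytes, 1 was called in each comparison, beside 8.35% of all genes tested at day 2 against sham, 26.1% at day 14 against sham and 4.23% at day 14 against day 2. In blood neutrophils the third tested gene was Timp2. None of 3 was called at stroke day 2, where edgeR called 0% of all genes (209 at an unadjusted p under 0.05, 0 with DESeq2), 1 of 3 at day 14 against sham beside 6.05%, and 0 of 3 at day 14 against day 2 beside 4.71%.

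**Figure D2:**
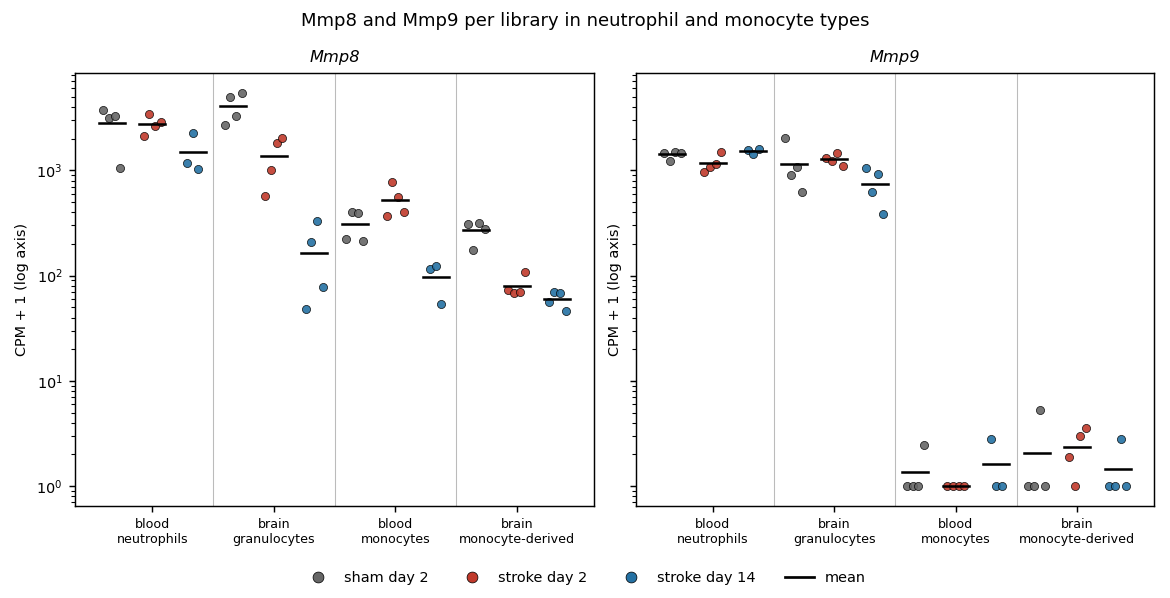
CPM + 1 on a log axis of Mmp8 (left) and Mmp9 (right) per library of young mice, in blood neutrophils, brain granulocytes, blood monocytes and monocyte-derived brain cells; points are libraries and bars are means of 3 to 4 libraries. Mmp8 is lower at stroke day 14 than in sham in the granulocyte, monocyte and monocyte-derived columns without overlap, and Mmp9 is at 386 CPM or more in the neutrophil types and at 4.29 CPM or less in the monocyte types.

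In young mice Mmp8 was also present in cells of the monocyte lineage, where Mmp9 was close to absent. Aged monocyte-derived brain cells at stroke day 2 had Mmp8 at 5.81% to 10.3% of the granulocyte level, and Mmp9 at 0.223% to 2.81%. In the single aged day 14 library they had Mmp8 at 0, and Mmp9 at 6.76% from 1 count. Blood monocytes held 602 counts of Mmp8 and 1 count of Mmp9 in sham, 719 and 0 at stroke day 2, and 184 and 1 at stroke day 14. In the same libraries the Mmp8 level of monocytes was 5.96% to 20.3% of that of neutrophils in sham, 14.0% to 22.8% at day 2 and 5.05% to 9.77% at day 14. The 6 neutrophil markers in monocytes were at 0.0164% to 0.112% of their neutrophil level, and Mmp9 at 0% to 0.117%. The Mmp8 share was higher than that of the markers and of Mmp9 in all 11 blood libraries. The part of neutrophil RNA in the Mmp8 level of monocytes was not tested. B cells of sham blood held 0 counts of Mmp8 among 6956 cells, which allows up to 0.819 CPM (3 counts over the group, counting error only). The share of monocytes with an expected count of Mmp8 that rounds to 1 or more was 19.6%, 29.8% and 6.58% in the 3 groups. In B cells it was 0%. Median depths in sham were 833 counts per cell in monocytes and 464 in B cells.

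By library, blood monocytes had Mmp8 at 224, 405, 394 and 214 CPM in sham, 370, 777, 552 and 403 CPM at stroke day 2, and 114, 123 and 52.2 CPM at stroke day 14. Day 14 lay below both other groups without overlap. The fall from day 2 to day 14 was 2.37 ± 0.34 in log2 (adjusted p = 0.0025), and against sham the difference was −1.63 ± 0.34 (adjusted p = 0.0551). Of 3 genes tested in blood monocytes (Mmp8, Mmp19 and Timp2), 0 were called at day 2 against sham, where edgeR called 0% of all genes (188 at an unadjusted p under 0.05, 0 with DESeq2), 0 at day 14 against sham beside 0.254% and 1 at day 14 against day 2 beside 0.537%.

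Monocyte-derived brain cells carried Mmp8 at 311, 174, 312 and 276 CPM in sham, from 43 to 99 cells per library, at 72.8, 67.4, 68.2 and 106 CPM at stroke day 2, and at 54.9, 68.6, 66.9 and 45.6 CPM at stroke day 14. Both stroke groups lay wholly below sham. The fall was 1.28 ± 0.30 in log2 at day 2 (adjusted p = 0.0208) and 1.75 ± 0.31 at day 14 (adjusted p = 0.0036). The day 2 call was lost without any of 5 single libraries, with adjusted p up to 0.137, and without the filter on low counts (0.152), and the day 14 call was kept. Neutrophil markers in these cells were at 3404, 1414, 744 and 0 CPM in the sham libraries, at 112 to 245 CPM at day 2 and at no more than 117 CPM at day 14. The sham library with none of them, where few cells limit what a 0 shows, had Mmp8 at 276 CPM. The part of these markers in the Mmp8 level of monocyte-derived cells was not tested. The share of the Mmp8 level of brain granulocytes was 3.54% to 11.5% in sham, against 0% to 1.21% for the markers, and 3.75% to 12.7% at day 2, against 0.0573% to 0.129%. At day 14, when granulocytes had little Mmp8, it was 20.5% to 116%, against 0.0411% to 0.202%, and in replicate 1 monocyte-derived cells (54.9 CPM) stood above granulocytes (47.4 CPM, from 1 count). Of all Mmp8 counts of a young brain library, monocyte-derived cells held a mean of 6.72% in sham (1.71% to 17.6%). At day 2 they held 73.4% (50.9% to 93.2%) and at day 14 87.4% (73.9% to 99.0%). Their share of cells went from 2.17% to 49.9% and 22.6%. The cells were sorted, so these are shares of the libraries and not of the brain.

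The 300-base window around the start of Mmp8 in RefSeq (GRCm38.p6) was searched, with those of 5 other members, for the letters bound by PU.1, a regulator of myeloid cells (GAGGAAGT or its reverse ACTTCCTC), and by AP-1, a factor induced by injury (TGANTCA, and the variant TGAGTAA or its reverse TTACTCA). These windows run from 250 bases before to 50 after the start, and 6 of 8 members had one, Mmp12 with 2. PU.1 letters were found once at Mmp8 and once at Mmp12, the pair of genes on chromosome 9, and the classical AP-1 letters once, at the second Mmp12 start. They are shown because these genes differ in the myeloid types that hold them; the capitals mark the matched letters, with 25 bases on either side, all on the plus strand.
Mmp8, chr9:7558183-7558240: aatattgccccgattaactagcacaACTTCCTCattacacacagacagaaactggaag
Mmp12, first start, chr9:7344284-7344341: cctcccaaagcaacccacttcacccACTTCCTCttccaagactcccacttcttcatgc
Mmp12, second start, chr9:7347305-7347361: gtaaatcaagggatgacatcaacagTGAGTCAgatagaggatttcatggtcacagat
The match at Mmp8 begins 221 bases before its start, and those at Mmp12 begin 88 and 44 bases before theirs. The variant AP-1 letters were found once, at Timp1, 26 bases after the start. Of 32851 RefSeq windows of this length, 3.2% held the PU.1 letters, 7.81% the AP-1 letters and 2.68% the variant on either strand. A match of letters is a description of sequence and not a bound site.

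Mmp12, macrophage elastase, cuts elastin and other matrix proteins and is made by macrophages. It lies on chromosome 9 at 7344381 to 7369499, plus strand, and its exons overlap those of Mmp1b on the other strand. The strand used in counting is not given in the sources used here, so reads of overlapping genes on opposite strands may not be separated. In microglia Mmp12 was at 0 in the 4 sham libraries, at 61.7, 57.0, 83.3 and 32.9 CPM at stroke day 2, and at 8.66, 4.59, 0.474 and 10.0 CPM at stroke day 14. The 83.3 CPM of stroke day 2 replicate 3 rests on 2 counts, and without it the day 2 mean was 50.5 ± 15.4 CPM (SD, n = 3). Over the same groups the monocyte or macrophage markers in microglia went from 233 to 393 CPM in sham to 545 to 4207 CPM at day 2 and 2151 to 3153 CPM at day 14, and the microglial markers from 14610 to 21335 CPM to 817 to 12466 CPM and 9815 to 13705 CPM. Their part in the Mmp12 difference was not tested. Without stroke day 2 replicate 3, the day 2 ranges were 545 to 1291 CPM for the macrophage markers and 10392 to 12466 CPM for the microglial ones. The day 14 level was at least 11.1-fold above sham (group mean against a floor of 3 counts over the sham group, adjusted p = 0.0028), and at day 14 the value of replicate 3 rested on under 1 expected count in 1 cell, below the limit that a count of 0 allows there. From day 2 to day 14 it fell by 2.76 ± 0.54 in log2 (adjusted p = 0.0130). Without stroke day 2 replicate 3 that fall was 2.76 with an adjusted p of 0.0283, and without stroke day 2 replicate 1 the adjusted p was 0.0554.

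Outside microglia, Mmp12 depended on the group. Over all groups of both ages the dendritic code was level with microglia, at 22.2 against 21.1 CPM (17 and 18 libraries), from 33 against 340 counts. Monocyte-derived brain cells, which carried the macrophage markers far more strongly, had a mean of 5.42 ± 4.72 CPM (SD, n = 4) at stroke day 2 and 6.54 ± 4.62 CPM (n = 4) at stroke day 14, against 58.7 ± 20.7 CPM (n = 4) and 5.94 ± 4.32 CPM (n = 4) in microglia. The level in microglia at day 2 was above that in monocyte-derived cells in each of the 4 libraries, in replicate 3 on 2 counts, and at day 14 the 2 types overlapped. In young sham brain the gene was found in the dendritic code, at 71.2 and 125.5 CPM in replicates 1 and 2 and at 0 in the other 2, from 13 counts over 284 cells, and in border-associated macrophages of replicate 2, at 20.2 CPM from 4 counts. In aged sham, T cells of the male library had 94.6 CPM from 6 counts in 1 of 83 cells, all the Mmp12 counts of that library, and 24 dendritic-coded cells of the female library had 74.7 CPM from 1 count, and the aged day 14 library gave 67.3 CPM from 5 counts, against 17.8 CPM in its microglia. In young stroke brain the dendritic code stayed at or below 7.73 CPM.

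**Figure D3:**
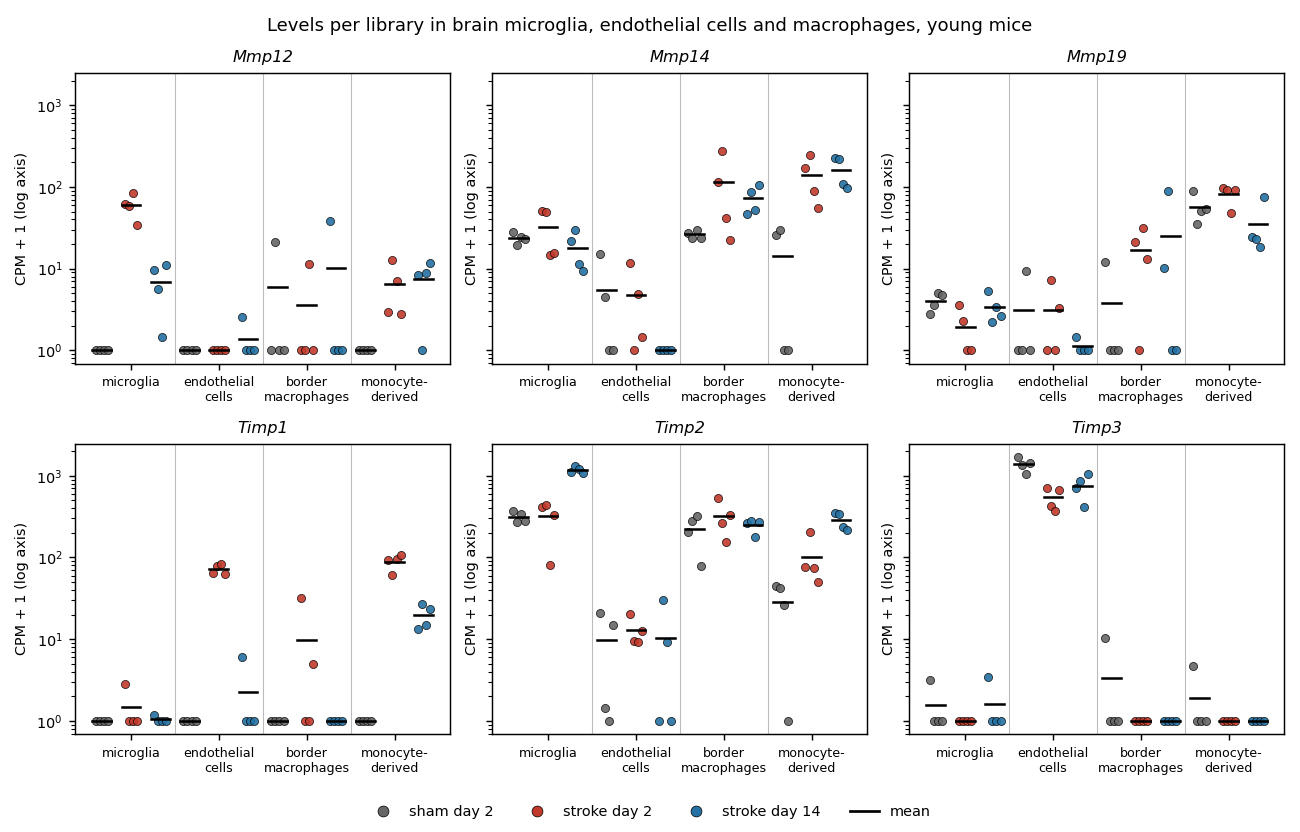
CPM + 1 on a log axis per library of young brain for 6 genes, each in microglia, endothelial cells, border-associated macrophages and monocyte-derived cells; points are libraries (grey sham day 2, red stroke day 2, blue stroke day 14) and bars are means. Mmp12 leaves 0 in microglia after stroke, Timp1 leaves 0 in endothelial and monocyte-derived cells at day 2, and Timp2 in microglia is above 1000 CPM in all 4 libraries at day 14.

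Mmp14, a metalloproteinase anchored in the cell membrane, cuts collagen at the cell surface and activates the proenzyme of gelatinase A with the help of Timp2. Chromosome 14 carries it at 54431612 to 54445364, plus strand. In monocyte-derived brain cells its level was 25.2, 28.6, 0 and 0 CPM in sham, from 3 and 2 counts, then 171, 245, 87.3 and 54.9 CPM at stroke day 2 and 226, 217, 107 and 97.2 CPM at stroke day 14. All 8 stroke libraries were above all 4 sham libraries. The rise was 3.09 ± 0.72 in log2 at day 2 (adjusted p = 0.0187) and 3.32 ± 0.71 at day 14 (adjusted p = 0.0125), and the 2 stroke times overlapped. Without sham replicate 1 the adjusted p values were 0.0615 and 0.0554, and without TMM scaling the day 2 value was 0.0603. In each stroke group, replicates 1 and 2 were the higher ones, and these are the libraries whose median cell had under 1% mitochondrial counts, as had sham replicate 1. With that split as a term both calls were kept.

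After stroke the group means of Mmp14 in other macrophage types were below those of monocyte-derived cells (140 and 162 CPM), while in sham they were not (13.4 CPM in monocyte-derived cells). Microglia had means of 22.6 ± 3.41, 31.8 ± 20.6 and 17.1 ± 9.57 CPM (SD, n = 4 each) in sham, stroke day 2 and stroke day 14, which overlapped and were not called (37.9 ± 20.4 CPM, n = 3, at day 2 without replicate 3). Border-associated macrophages had 25.3 ± 3.03, 112 ± 114 and 71.9 ± 28.7 CPM (n = 4 each), from 9, 18 and 11 counts, too few to be tested. The day 2 mean rested on replicate 2, at 273 CPM, and without it was 59.1 ± 49.8 CPM (n = 3), below the day 14 mean. The dendritic code had 14.5 ± 17.7, 63.7 ± 30.0 and 45.0 ± 28.2 CPM (n = 4 each).

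Mmp19 cuts components of basement membrane and was first described in joint lining and leukocytes. It lies on chromosome 10 at 128790910 to 128800824, plus strand, wholly within the antisense gene Gm47093 and overlapping Tmem198b on the other strand, so part of its counts could belong to these. It was highest in monocyte-derived brain cells, at 88.9, 34.6, 49.3 and 53.0 CPM in sham, 96.4, 90.5, 46.4 and 91.5 CPM at stroke day 2, and 23.7, 22.1, 17.7 and 74.0 CPM at stroke day 14. The groups overlapped and no comparison among them was called (adjusted p = 0.44 at day 2, 0.76 at day 14 and 0.17 between the times). With the replicate block, which also numbered the sham libraries, it fell by 1.44 ± 0.30 in log2 between the times (adjusted p = 0.0023). Without the day 14 library with 74.0 CPM it was called as well. Blood monocytes had means of 13.9 ± 12.6, 29.2 ± 17.3 (n = 4 each) and 4.30 ± 4.26 CPM (n = 3). Brain granulocytes had 37.0 ± 13.1 CPM (n = 4) at stroke day 2, from 7 counts.

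Set against blood monocytes of the same group, monocyte-derived brain cells had more Mmp19 and Timp2. At stroke day 2, Mmp19 was higher by 1.87 ± 0.40 and Timp2 by 1.98 ± 0.42 in log2 (adjusted p = 0.0044 and 0.0046), and Mmp8 was lower, with a difference of −2.39 ± 0.28 (adjusted p = 8.07e-05). At stroke day 14, Mmp19 was higher by 2.87 ± 0.77 (adjusted p = 0.0271) and Timp2 by 3.95 ± 0.32 (adjusted p = 4.8e-05), while Mmp8 was not called. All 3 tested genes were called at day 2 beside 24.7% of all genes tested, and 2 of 3 at day 14 beside 20%. The Mmp19 call at day 14 was lost without any 1 of the 3 blood libraries. Tissue and library preparation differ together between brain and blood and cannot be told apart. Brain granulocytes against blood neutrophils at stroke day 2 gave 0 calls among Mmp8, Mmp9 and Timp2 with edgeR, beside 9.16% of all genes.

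Timp1 is the inducible inhibitor, low in resting tissue and raised by inflammation. The gene sits on chromosome X at 20870166 to 20874735, plus strand, inside the span of Syn1 on the other strand without sharing exons. In endothelial cells it was at 0 in 4 sham libraries and at 64.4, 77.6, 82.8 and 61.8 CPM at stroke day 2. By stroke day 14 it was at 0 in 3 libraries and rested on 3 counts in the other. The fall from day 2 to day 14 was 4.73 ± 0.56 in log2 (adjusted p = 0.00095). Monocyte or macrophage markers in endothelial cells were at 521 to 887 CPM in sham, 373 to 1360 CPM at day 2 and 318 to 1280 CPM at day 14, ranges that overlap. The mean of Timp1 there at day 2 was 71.7 CPM, against 88.3 CPM in monocyte-derived cells of the same libraries, whose markers were at 25882 to 37881 CPM. The part of macrophage RNA in the Timp1 level of endothelial cells was not tested.

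Monocyte-derived cells had Timp1 at 0 in sham, at 91.5, 59.7, 94.8 and 107 CPM at stroke day 2 and at 12.4, 25.8, 13.8 and 22.1 CPM at stroke day 14. The day 2 level was at least 6.72-fold above the sham floor (adjusted p = 0.0015), and the day 14 level at least 1.21-fold (adjusted p = 0.0474, a call lost in 14 of 15 alternatives). Between the times it fell by 2.34 ± 0.37 in log2 (adjusted p = 0.0078). The dendritic code followed the same order, with 0 in sham, 67.8, 98.1, 90.7 and 152 CPM at day 2, and 9.92 to 16.5 CPM at day 14. Microglia stayed at or below 1.84 CPM in every young library, so at stroke day 2 the types with Timp1 and the type with the most Mmp12 were different.

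Timp2, an inhibitor present in most tissues, both blocks metalloproteinases and links Mmp14 to the proenzyme that it activates. It lies on chromosome 11 at 118301069 to 118355740, minus strand. Microglia had 372, 272, 340 and 277 CPM in sham, 419, 440, 81.0 and 331 CPM at stroke day 2 (397 ± 57.7 CPM, SD, n = 3, without replicate 3), and 1119, 1308, 1225 and 1067 CPM at stroke day 14. Every day 14 library was above every other one. The rise at day 14 was 2.37 ± 0.34 in log2 against sham (adjusted p = 0.00044) and 2.08 ± 0.34 against day 2 (adjusted p = 0.0034), and without stroke day 2 replicate 3, the library with 81.0 CPM, the latter was 1.85 (adjusted p = 0.00053). Microglial markers were at 14610 to 21335 CPM in sham and 9815 to 13705 CPM at day 14, and monocyte or macrophage markers in microglia at 233 to 393 and 2151 to 3153 CPM. Their part was not tested. Monocyte-derived cells at day 14 had less Timp2 than microglia in all 4 libraries.

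In monocyte-derived cells Timp2 was at 43.3, 40.8, 25.5 and 0 CPM in sham, at 76.5, 202, 72.8 and 49.7 CPM at stroke day 2 and at 345, 341, 236 and 219 CPM at stroke day 14. The sham values rest on few counts: over all 318 sham cells, 3 counts amount to 13.1 CPM. The 3 groups did not overlap, but the highest sham library (43.3 CPM) was just below the lowest day 2 library (49.7 CPM). The difference from sham was 1.97 ± 0.59 at day 2 (adjusted p = 0.0581, called under 3 of 16 alternatives) and 3.47 ± 0.56 at day 14 (adjusted p = 0.0021), and between the times 1.5 ± 0.37 (adjusted p = 0.0507). With the replicate number as a block, the difference between the times was 1.65 ± 0.27 (adjusted p = 0.00011). Same-numbered stroke libraries deviated together in these cells, but the labels do not say what the numbers share. The sham libraries were in that fit under the same numbers, although they did not deviate together with the stroke libraries. Their correlations were −0.0720 to 0.0503 with stroke day 2 and −0.0787 to 0.101 with stroke day 14. Microglial markers in these cells were at 0 to 436 CPM in sham, 270 to 655 CPM at day 2 and 289 to 1807 CPM at day 14. In the day 14 library with 289 CPM of them, Timp2 was at 219 CPM, the lowest of that group. This was above all sham and day 2 libraries, of which the highest had 202 CPM. The part of these markers in the Timp2 difference was not tested.

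Border-associated macrophages held Timp2 at 221 ± 106, 320 ± 163 and 249 ± 47.0 CPM (SD, n = 4 each) in the 3 groups, which overlapped. It was the 1 gene tested there and it was not called in any comparison by edgeR, beside 2.51%, 0.0762% and 0.762% of all genes at day 2 against sham, day 14 against sham and day 14 against day 2 (0.0762% in the last with the replicate block). At an unadjusted p under 0.05, 300, 80 and 213 of all genes passed, and DESeq2 called 41, 2 and 14. Blood neutrophils had Timp2 at 227, 165, 222 and 258 CPM in sham, 169, 120, 222 and 160 CPM at day 2 and 121, 154 and 117 CPM at day 14. The day 14 level was below sham without overlap, and the fall of 1.04 ± 0.27 in log2 (adjusted p = 0.0299) was lost in 6 of 14 alternatives, 4 of them a library left out (sham replicate 1 or 3, stroke day 14 replicate 1 or 3). The neutrophil markers of these cells were at 197359 to 301418 CPM in sham and 110786 to 188932 CPM at day 14. Their part in the fall was not tested.

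Timp3 is the inhibitor that binds to the matrix itself and also blocks ADAM17, a shedder of cell surface proteins. It lies on chromosome 10 at 86300372 to 86349506, plus strand, inside Syn3 on the other strand with overlapping exons. Endothelial cells had 1700, 1362, 1054 and 1431 CPM in sham, 700, 420, 373 and 675 CPM at stroke day 2, and 705, 862, 410 and 1058 CPM at stroke day 14. All day 2 libraries were below all sham libraries, and Timp3 fell by 1.26 ± 0.30 in log2 (adjusted p = 0.0134). At day 14 the highest library was just above the lowest of sham, and the difference of −0.88 ± 0.30 was not called (adjusted p = 0.62). Endothelial markers were also lower at day 2, at 12882 to 16770 CPM against 18185 to 26545 CPM in sham, and 18488 to 21256 CPM at day 14. Mural markers in endothelial cells were at 114 to 560 CPM in sham, 67.9 to 231 CPM at day 2 and 98.9 to 823 CPM at day 14. The part of either list in the Timp3 difference was not tested.

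Mural cells, the pericytes and smooth muscle of vessels, were the other source of Timp3. In young brain, only 2 sham libraries had at least 20 of them, with Timp3 at 60.6 and 1666 CPM, and 1 stroke day 2 library with 1064 CPM (572 to 1836, 95% interval of counting error). In aged brain, 1 sham library had enough, with 1564 CPM (1034 to 2283). No young stroke day 14 library had enough, so no comparison was fitted. In other types of young brain and blood Timp3 stayed at a few counts, 9 in all blood tables.

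Read by type, Timp1 and Timp3 went in opposite directions in endothelial cells at stroke day 2. Both genes tested there were called, beside 13.4% of all genes. At day 14 against sham, 0 of 2 were called by edgeR, which called 0% of all genes (354 at an unadjusted p under 0.05, 9 with DESeq2), and 1 of 2 between the times beside 11.2%. In microglia, 1 of 3 tested genes (Mmp12, Mmp14 and Timp2) was called at day 2 beside 31.4%, 2 of 3 at day 14 beside 15.2%, and 2 of 3 between the times beside 6.92%. In monocyte-derived cells, 3 of 5 were called at day 2 beside 6.71%, 4 of 5 at day 14 beside 5.15%, and 1 of 5 between the times beside 1.79% (3 of 5 beside 5.8% with the replicate block). The median log2 difference of all genes in those cells was 0.29 at day 2 and 0.28 at day 14, from only 318 sham cells, and the member values above are to be read relative to it.

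Aged brain was measured in fewer libraries. In aged microglia Mmp12 was at 0 and 3.85 CPM in sham, at 57.7 CPM (male) and 40.9 and 0 CPM (females) at stroke day 2, and at 17.8 CPM (11.5 to 26.8, counting error) in the single day 14 library. The difference at day 2 of 3.71 ± 0.97 in log2 had an adjusted p of 0.067. It was called under 4 of 12 alternatives, among them the fit without stroke day 2 replicate 2 (female). Over all alternatives it ran from 3.23 to 8.23. Aged microglia had Timp2 at 403 and 571 CPM in sham, 549, 494 and 487 CPM at day 2 and 1127 CPM (1071 to 1186) at day 14, the last within the range of the young day 14 libraries. None of 3 genes was called by edgeR in aged microglia, beside 2.67% of all genes.

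In aged endothelial cells Timp1 was at 3.88 and 10.2 CPM in sham and at 83.5, 100.0 and 40.0 CPM at stroke day 2, a rise of 3.64 ± 0.69 in log2 (adjusted p = 0.0332) that 4 of the 5 libraries, left out singly, ended (adjusted p up to 0.332). Its 2 sham libraries held 1 count each. Timp3 was at 967 and 1045 CPM in aged sham and 583, 701 and 793 CPM at day 2, without overlap and not called (adjusted p = 0.57). The count of calls was 1 of 2 beside 0.606%. In aged monocyte-derived cells, Timp1 was at 0 in sham and at 140, 102 and 121 CPM at day 2, at least 2.58-fold above the floor of 85 sham cells (adjusted p = 0.0221), a call lost with DESeq2 and without either sham library (adjusted p up to 0.165). Mmp14 was at 0 in sham and at 115, 111 and 89.0 CPM at day 2, at least 2.22-fold (adjusted p = 0.0594), and Mmp19 at 0 and 27.6 CPM against 128, 88.4 and 93.4 CPM (adjusted p = 0.0549). There 1 of 5 was called beside 2.75%, with a median of all genes at 0.44. The test of age by stroke at day 2 called none of the members with edgeR in microglia (3 tested), endothelial cells (2) or monocyte-derived cells (5), and 0% of all genes in each: 643, 352 and 477 genes passed an unadjusted p under 0.05, and DESeq2 called 1, 0 and 3. With 2 aged sham libraries, this does not show that the ages responded alike. The young libraries were all male and the aged ones of both sexes, so sex differs along with age in this test.

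**Figure D4:**
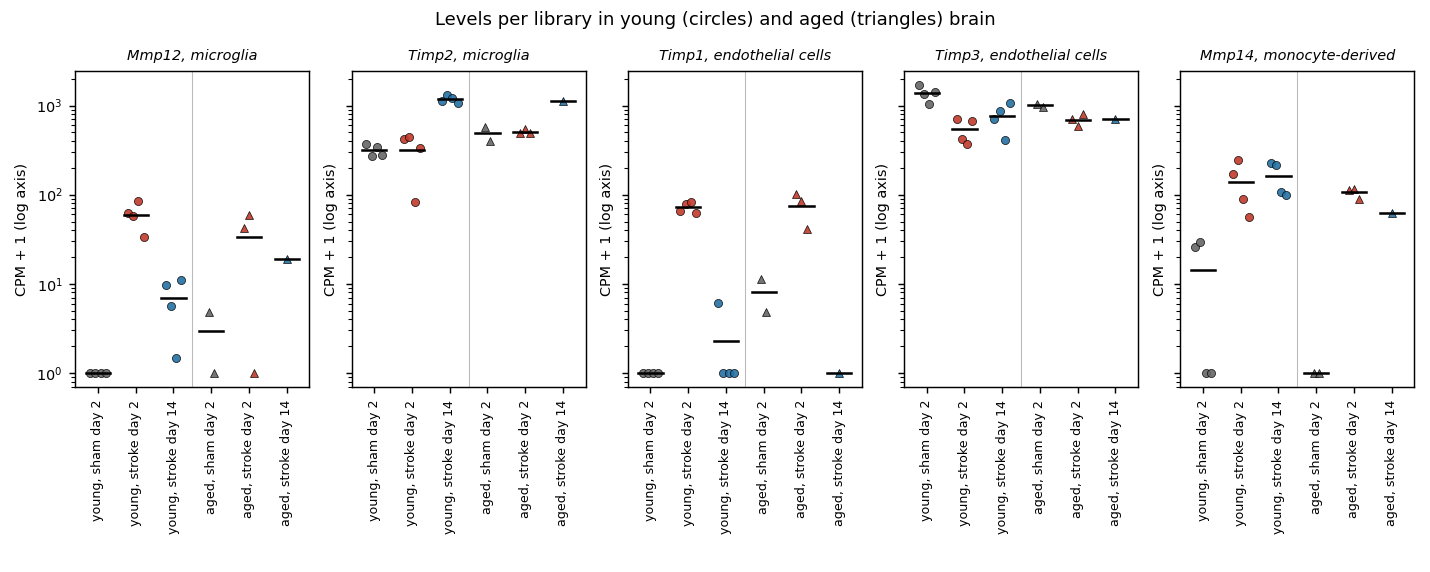
CPM + 1 on a log axis per library for 5 pairs of gene and brain cell type in young mice (circles) and aged mice (triangles); bars are means, of 1 library for aged stroke day 14. Timp2 in microglia is above 1000 CPM at stroke day 14 at both ages. Timp1 in endothelial cells is at 10.2 CPM or less in sham and at day 14, and between 40.0 and 100.0 CPM at day 2, at both ages. Its aged day 14 value is 0 in 1 library of 176 cells. Counting error there allows up to 62.9 CPM, which lies within the day 2 range.

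Around the members, other genes of extracellular proteolysis were described from 5 lists of names: 17 further Mmp genes and Timp4, 12 ADAM and ADAMTS relatives, 11 genes of plasminogen activation, 14 partners and regulators, and 15 matrix substrates. Not all the listed Mmp genes were measured, as the tables held 15 Mmp genes with the 5 members included. In endothelial cells at stroke day 2, 4 of 11 tested substrates rose and 1 fell, beside 13.4% of all genes called, and the list's median log2 difference was 0.54 against 0.00 for all genes. Col4a2, a chain of collagen IV, rose by 1.67 ± 0.39 (adjusted p = 0.0126), and so did its partner chain Col4a1, named here after its value was seen, by 1.60 ± 0.36 (adjusted p = 0.0106). Nid1, a linker of basement membrane, rose by 1.72 ± 0.47 (adjusted p = 0.0245), and Lamb2, a laminin chain, fell by 0.90 ± 0.22 (adjusted p = 0.0158). Among 5 tested partners 2 fell, Reck, a membrane-anchored inhibitor of metalloproteinases, by 1.00 ± 0.25 (adjusted p = 0.0167) and the matrix proteoglycan Spock2 by 1.69 ± 0.29 (adjusted p = 0.0029). The median of the partners was −0.93. Adamts9, a secreted relative, rose by 4.19 ± 0.74 (adjusted p = 0.0033) from 3.31 to 99.8 CPM, and 2 of 7 relatives and 2 of 6 plasminogen genes rose. The means of endothelial and mural markers in these cells were 21670 and 423 CPM in sham and 15036 and 122 CPM at day 2. Their part in the list genes was not tested. By day 14, 0 of these lists had a call against sham, where 0% of all genes were called, and between the times 3 of 11 substrates fell and 3 of 5 partners rose beside 11.2%. With the replicate block 5 substrates fell and 2 partners rose, and 2 of 7 relatives fell in place of 1, beside 11.1%.

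In microglia at stroke day 2, 2 of 7 relatives, 1 of 7 plasminogen genes, 2 of 7 partners and 2 of 4 tested substrates rose and 0 fell, together a share close to the 31.4% of all genes called in that comparison. Adam8, a leukocyte surface protease, rose from 0.921 to 48.9 CPM (adjusted p = 0.00012), Fn1, fibronectin, from 0 to 118 CPM (adjusted p = 0.00036) and Spp1, osteopontin, a matrix protein that metalloproteinases cut, from 3.06 to 11698 CPM (adjusted p = 8.18e-06). Without stroke day 2 replicate 3 these levels were 52.2, 158 and 11319 CPM (adjusted p = 0.00040, 0.00061 and 3.22e-05). The counts were then 2, 1 and 2 of 7 and 2 of 5 substrates, beside 27.5% of all genes, with Cd44 lost (adjusted p = 0.0580) and Bsg gained (adjusted p = 0.0382), 2 cell surface partners listed here after their values were seen. The monocyte or macrophage markers of these microglia were higher after stroke as given above for Mmp12, in ranges of 545 to 1291 CPM at day 2 without that library against 233 to 393 CPM in sham, and their part in the list genes was not tested. At day 14, 1 of 7 relatives, 3 of 7 plasminogen genes, 2 of 7 partners and 2 of 4 substrates were above sham and 1 substrate below, beside 15.2% of all genes called. Among them were Anxa2, a cell surface docking protein for plasminogen, which went from 1.61 to 54.9 CPM (adjusted p = 0.0054), and Nid2, a linker of basement membrane, which fell to 1.16 CPM (adjusted p = 0.0020). From day 2 to day 14 1 of 7 plasminogen genes rose and 1 of 4 substrates fell, beside 6.92% of all genes called. The protease inhibitor Serpine2 rose by 2.14 ± 0.59 in log2 (566 to 2224 CPM, adjusted p = 0.0423), and Nid2 fell by 3.08 ± 0.69 (10.3 to 1.16 CPM, adjusted p = 0.0170). Without stroke day 2 replicate 3 the rise was 1.81 ± 0.33 (adjusted p = 0.0079) and the fall was by 3.16 ± 0.70 (adjusted p = 0.0208), beside 6.62%. Sparc, a matrix protein that binds collagen, then also rose, by 0.91 ± 0.19 (adjusted p = 0.0157).

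In monocyte-derived cells, 1 of 6 relatives, 2 of 7 plasminogen genes, 1 of 8 partners and 1 of 3 substrates rose at day 2 and 1 partner fell, and at day 14 the counts were 0, 1, 1 and 1, with 1 partner lower, beside 6.71% and 5.15% of all genes called and medians of all genes of 0.29 and 0.28. Cd63, a tetraspanin to which Timp1 binds, rose at both times, from 52.1 to 977 and 1487 CPM, and so did Plau, urokinase, from 0 to 38.6 and 84.9 CPM, and Spp1, from 98.2 to 7370 and 14706 CPM. Lcn2, a neutrophil protein that binds and protects Mmp9, fell from 210 to 29.3 and 1.00 CPM. The summed neutrophil markers in these cells had means of 1391 CPM in sham and 154 and 77.4 CPM after stroke, and their part was not tested. Between the times, 1 of 6 relatives, 2 of 7 plasminogen genes and 1 of 8 partners fell and 0 rose, beside 1.79% of all genes called. These were Adam8 (249 to 68.4 CPM), Anxa2 (1359 to 482 CPM), S100a10 (1292 to 345 CPM) and Lcn2, listed here after their values were seen. The 1 tested gene of the further metalloproteinases, Mmp27, rose from 1.23 to 17.5 CPM (adjusted p = 0.0372). With the replicate block 2 relatives, 3 plasminogen genes and 2 partners fell and 1 plasminogen gene rose, beside 5.8%.

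In brain granulocytes at day 2, 1 of 6 partners and the 1 tested substrate rose, and 1 partner and the 1 tested further metalloproteinase fell. None of the 1 relative and 2 plasminogen genes tested was called, beside 8.35% of all genes. At day 14, 3 of 6 partners and the substrate rose. There 1 partner, the further metalloproteinase and 2 of 2 plasminogen genes fell, and the relative was not called, beside 26.1%. Between the times 1 of 6 partners fell, beside 4.23%. With the replicate block the 1 tested substrate rose as well, beside 4.33%. The further metalloproteinase, Mmp25, a membrane-anchored enzyme of neutrophils, fell by 2.33 ± 0.57 in log2 at day 2 (adjusted p = 0.0140) and by 3.35 ± 0.62 at day 14 (adjusted p = 0.00057). Lcn2 fell by 1.58 ± 0.45 and 3.91 ± 0.51 (adjusted p = 0.0317 and 1.6e-05), and between the times by 2.32 ± 0.48 (adjusted p = 0.0086).

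Spp1 rose in these cells from 6.97 CPM in sham to 191 CPM at day 2 (adjusted p = 0.0436) and 893 CPM at day 14 (adjusted p = 9.28e-05). Cd63 rose from 159 to 1253 CPM (adjusted p = 0.0026) and 1527 CPM (adjusted p = 0.00046). The other 2 partners that rose at day 14 were Itgb1, an integrin subunit, from 23.3 to 242 CPM (adjusted p = 0.0174), and Thbs1, thrombospondin, from 87.0 to 939 CPM (adjusted p = 0.0029), and the plasminogen genes that fell were Anxa2, by 1.33 ± 0.39 in log2, and Plaur, the urokinase receptor, by 1.41 ± 0.46. Not all of these were named by rule, and some were listed after their values were seen. The summed neutrophil markers of these cells had means of 264349 CPM in sham, 162543 CPM at day 2 and 61902 CPM at day 14. Microglial markers had means of 208, 300 and 437 CPM, and monocyte or macrophage markers 9175, 3893 and 2037 CPM. The part of these lists was not tested. In blood neutrophils at day 14 Mmp25 fell by 1.18 ± 0.30 (adjusted p = 0.0312). The summed neutrophil markers there had means of 237799 CPM in sham and 147512 CPM at day 14, and their part was not tested. Lcn2 in blood monocytes went from 123 CPM in sham to 0 at day 14 (adjusted p = 0.0014).

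The genes whose levels ran most like those of each member were ranked over 102 sums of type and library of young brain (11 types, 12 libraries, 6893 genes), by Spearman's rho. The points share libraries and types, so these are descriptions. Timp2 ran with C1qa (0.83), C1qc (0.82) and C1qb (0.79), the chains of complement C1q, and with Trem2 (0.78) and Csf1r (0.77), and was at 0 in 19 sums. Timp3 ran with Tm4sf1 (0.85), Synm (0.80) and Rgs5 (0.79), but was at 0 in 75 sums. Mmp8 ran with Trem3 (0.85) and Gda (0.80), at 0 in 65, and Mmp14 with Cln8 (0.76), Adap2 (0.74) and Ctsh (0.73), at 0 in 46. For Mmp9, Mmp12, Mmp19 and Timp1 the best rho was 0.66, 0.63, 0.60 and 0.69, with Mirt2, Rab7b, Tgfbi and Emp1.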

How the data were processed

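Drop-seq libraries of sorted brain cells and blood leukocytes of mice were used as deposited. The authors deposited expected counts, not whole numbers, per gene and cell, with metadata that give cell type codes and the percent of mitochondrial counts per cell, per the file headers. Seurat and the build mm10 are named per the submitters' processing notes, without a version; the aligner, the strand setting and the cell filters are not given in the sources used here. Doublets were not called, and cells in the top 5 percent of totals were left out in an alternative.

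Values under 1e-06 (0.135% to 0.739% of non-zero values per library) were set to 0. Counts were summed per library and coarser deposited type, with at least 20 cells, rounded, and tested by edgeR 4.0.16 in R 4.3.3 (quasi-likelihood F test, TMM, filterByExpr, two-sided, Benjamini-Hochberg over all genes tested; called at an adjusted p under 0.05). The SE of a log2 difference is the size of the difference divided by the square root of its F statistic. It is approximate and not an output of the fit. Young brain and blood fits held their 3 groups, age fits the 4 day 2 brain groups, and brain against blood the 2 groups compared. For a gene at 0 in all libraries of a group, the fold is a minimum, taken as if that group held 3 counts in sum, and is the lowest of those from the group mean, the summed counts and the rounded counts; intervals of 95% for single libraries are exact Poisson. Intervals and floors cover counting error only. Coordinates are of GENCODE M21 on GRCm38, the same assembly as mm10, and promoter windows are from RefSeq.

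Alternatives were DESeq2 1.42.0, no TMM, no filter on low counts, each library left out, a block for replicate number, fits of just the groups compared, counts rounded up per cell, the top 5 percent of cells left out, sex as a covariate, at least 50 cells and the mean of single cells for levels, and, chosen after seeing the data, a term for the 5 young brain libraries with a median under 1% mitochondrial counts, member levels and gene lists in microglia without stroke day 2 replicate 3, Mmp14 means without each library, and the Mmp8 to Mmp9 ratio without each library. Replicate numbers were taken as pairs where all same-numbered libraries of the groups compared deviated together from their group means (every correlation over 0.1 across genes). This held between stroke day 14 and stroke day 2 in monocyte-derived cells (0.27 to 0.76), endothelial cells (0.14 to 0.48), granulocytes (0.18 to 0.47) and border-associated macrophages (0.14 to 0.57), and in no other comparison checked within a tissue. The labels do not say what the numbers share, and in both stroke groups replicates 1 and 2 are the libraries of low mitochondrial share. This rule was applied to the same data as the tests. The block fits also held the sham libraries under the same numbers, although sham did not meet the rule against either stroke time. The members, the gene lists and the tests were chosen with earlier results of these data known. All 8 members were named. Of the other lists at most 3 rising and 3 falling called genes per comparison were named by rule, and further ones were added after their values were seen, as stated above. On simulated counts, 85 of 100 genes changed by 2 in log2 were called for microglia and 43 of 100 for monocyte-derived cells (day 2 against sham, 10198 and 7886 genes). Of 100 genes changed by 1 in log2, 19 and 6 were called. Of 33 comparisons, the 3 of mural cells could not be fitted.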

Additional observations from a re-analysis of the deposited data

Results flagged for a closer look

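Among 50 groups of 4 libraries checked for 1 library apart from the rest, 4 were found, and chance gives about 1 in 20. In monocyte-derived cells at stroke day 14, Mmp19 was at 74.0 CPM in replicate 4 (33 counts, 857 cells) against 17.7 to 23.7 CPM in the other 3. In the same type at stroke day 2, Mmp19 was at 46.4 CPM in replicate 3 against 90.5 to 96.4 CPM, and Mmp8 at 106 CPM in replicate 4 against 67.4 to 72.8 CPM. Timp2 in border-associated macrophages at stroke day 14 was at 179 CPM in replicate 3, from 9 counts in 52 cells, against 264 to 280 CPM in the others.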

How the results depend on the processing

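Of 28 pairs of gene and comparison that were called, 18 kept call and direction in every alternative that tested them, 10 lost the call in at least 1, and 0 reversed. Of 48 uncalled pairs, 12 were called under some alternative. Direction was followed in 10 of these uncalled pairs, and 1 reversed: Mmp9 in brain granulocytes at day 2 against sham, from −0.06 to 0.13 without TMM, 0.10 with the replicate block, 0.0154 with only the compared groups and 0.0223 without the top 5 percent of cells, and from −0.37 to 0.37 with single libraries left out (the highest without sham replicate 1).

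Counts of called members that moved by more than 1.5 times are given first. The cause was not tested. The shares of all genes called under these alternatives are not given in this section, so the counts are not to be read as results about the members. With DESeq2 they were 2 in monocyte-derived cells between the times, 1 in blood monocytes at day 14 against sham, 1 in aged microglia and 0 in aged monocyte-derived cells. DESeq2 gave Timp1 no adjusted p in aged endothelial cells, so no count is given there. Without the filter on low counts they were 0 in granulocytes at day 2, 2 in neutrophils at day 14 and 1 between the times, 1 in blood monocytes at day 14 and 2 between the times, 1 in aged microglia, 3 in aged monocyte-derived cells and 1 in granulocytes against neutrophils. Without TMM they were 0 in neutrophils at day 14. With only the compared groups they were 1 in microglia at day 14, where Mmp12 did not pass the filter and was not tested, 1 in neutrophils between the times and 0 in aged endothelial cells. Without the top 5 percent of cells they were 2 in neutrophils at day 14, 1 in aged microglia and 0 in aged endothelial cells. Sex as a covariate gave 0 in aged endothelial cells, and rounding up gave 2 in monocyte-derived cells between the times. The term for low mitochondrial share, chosen after seeing the data, gave 2 there and 2 in granulocytes at day 14. Smaller changes were seen in monocyte-derived cells against sham. The day 14 count went from 4 to 3 with DESeq2, without TMM, without the filter, with the replicate block, with only the compared groups, without the top 5 percent of cells and with the mitochondrial term, and Timp1 lost its call in each of these except with only the compared groups, where it was not tested. The day 2 count went from 3 to 2 without TMM, where Mmp14 was lost, and to 4 with the replicate block or the mitochondrial term, where Timp2 was gained. Without the filter it stayed at 3, with Mmp8 lost and Timp2 gained.

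With single libraries left out, counts ranged from 1 to 2 in microglia between the times, 1 to 3 in monocyte-derived cells at day 2, 2 to 3 at day 14 and 1 to 2 between the times. They ranged from 0 to 1 in granulocytes at day 2 and 1 to 2 at day 14, from 0 to 2 in neutrophils at day 14 and 0 to 1 between the times, and from 0 to 1 in blood monocytes at day 14. They ranged from 0 to 1 in each aged type and in granulocytes against neutrophils, and from 1 to 2 for monocyte-derived cells against blood monocytes at day 14, where Mmp19 was not tested without stroke day 14 replicate 1. Where an aged sham group was left with 1 library, it is assumed to vary like the other groups.

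With the replicate block, 3 members were called in monocyte-derived cells between the times, and it changed no member's call in the other comparisons where numbers were taken as pairs. Elsewhere the libraries share only a number, and there the block gave 2 calls in granulocytes and 1 in blood monocytes at day 14 against sham, and 0 in neutrophils at day 14, beside the changes in monocyte-derived cells against sham given above. Depth limits granulocytes, mural cells and the sham monocyte-derived cells, of which there were 318. Levels moved by more than 1 SD in 9 of 112 cases when taken as the mean of single cells, and in 0 of 106 with at least 50 cells.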
